A study of Mus musculus with 2 samples.

Results

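Mature neutrophils of the mouse colon were taken as the cells of 2 single-cell RNA libraries that had at least 1 UMI (a count of 1 captured RNA molecule) of at least 3 of the 7 neutrophil genes Csf3r, Cxcr2, G0s2, Hcar2, Mmp9, Retnlg and Il1f9. They also had at most 2 UMIs of the granule gene Ngp, and no UMI of C1qa, C1qb, C1qc, Adgre1, Cd3e or Cd79a, which mark macrophages, T cells and B cells. The members were thus chosen by measured UMIs, and the genes of the rule are given only as a description. The rule found 935 of the 20052 cells kept, 642 of 11885 in the Runx3_fl library and 293 of 8167 in the Runx3 library. The study deleted Runx3, a runt-domain transcription factor, with Cre driven by Lyz2, a promoter of macrophages, monocytes and neutrophils, and compared these mice with floxed littermates. Per the labels, both libraries were CD11b+ cells of the gut lamina propria, the connective tissue under the epithelium, and the study describes pooled 8-week-old male mice. The labels name the libraries only Runx3_fl and Runx3, and neither title states Cre, so the libraries are called by their titles. Each group was 1 library, so no difference between them has a replicate check, no p-value is given, and all intervals (95%) cover counting error only.

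Neutrophils are short-lived granulocytes that leave the bone marrow with their granules already filled. They are called to tissue by chemokines such as CXCL2 through the receptor CXCR2, and G-CSF acts on them through CSF3R. In inflamed gut they release the calprotectin proteins S100A8 and S100A9, interleukin 1 and further chemokines, and they respond to both type I interferon and interferon gamma. They carry little RNA per cell, so they give few UMIs beside other leukocytes.

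Several facts of the libraries bear on what follows. The libraries held 146204416 and 75478164 UMIs, and kept cells had a median of 9573 UMIs in Runx3_fl and 5731 in Runx3. Although labelled CD11b+, T cells were 26.9% of kept cells in Runx3_fl and 6.49% in Runx3, and B cells 1.08% and 11.4%. Xist, the RNA of the inactive X chromosome, was at 246 CPM (counts per 1000000 UMIs) in the T cells of Runx3_fl and 0.144 CPM in those of Runx3, against the description of all mice as male. Among the mature neutrophils 43 of 642 had a Xist UMI in Runx3_fl and 0 of 293 in Runx3 (which allows a share of up to 1.02%), while 326 and 192 had a UMI of a Y-linked gene. No barcode was that of a mature neutrophil in both libraries, and 2 barcodes of mature neutrophils of Runx3_fl were also found among the barcodes of Runx3. Free RNA differed too, because S100a8 stood at 20.7 CPM in the T cells of Runx3_fl and 935 CPM in those of Runx3. The level in T cells of the same library is therefore given beside neutrophil values that could come from free RNA. T cells held more UMIs per cell (medians of 13810 in Runx3_fl and 10252.5 in Runx3). An equal number of free UMIs thus gives a lower CPM in T cells than in neutrophils.

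The label fitted most but not all of the cells. Mature neutrophils had a median of 3003 UMIs in Runx3_fl (range 736 to 41537) and 3373 in Runx3 (526 to 35317), with 1032.5 and 1176 genes per cell. Mitochondrial UMIs had a median of 0.472% and 0.980%. Csf3r, the G-CSF receptor, was at 690 CPM in Runx3_fl and 858 CPM in Runx3, against 7.37 and 43.8 CPM in T cells. Cxcr2 was at 315 and 324 CPM, against 1.43 and 3.16 CPM. Both receptors were part of the rule, so their levels only describe the cells. S100a9, which was not in the rule, was at 7707 CPM in Runx3_fl and 7877 CPM in Runx3, against 29.4 and 825 CPM in T cells. After each cell was thinned to 1000 UMIs, 72.0% and 73.0% of mature neutrophils had a S100a9 UMI (82.4% and 88.4% unthinned), against 1.0% and 11.4% of T cells (5.3% and 66.2%). Calprotectin was uneven between cells, since 233 cells in Runx3_fl (36.3%) and 119 in Runx3 (40.6%) had fewer than 10 UMIs of S100a8 and S100a9 together.

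Cells close to the limits of the rule were counted. Exactly 3 of the 7 genes were found in 91 mature neutrophils of Runx3_fl and 89 of Runx3, and a further 215 and 204 cells had 2 genes and stayed outside. Csf3r was at 322 and 323 CPM in the cells just inside and at 101 and 155 CPM in those just outside, and S100a9 was at 1834 and 843 CPM just inside and 49.2 and 245 CPM just outside. The limits on other genes removed 325 of 967 cells with 3 or more of the 7 genes in Runx3_fl and 613 of 906 in Runx3. Ngp, an antimicrobial protein of immature granules, kept only 1 cell out on its own in Runx3_fl but 73 in Runx3. Cells with 3 or more Ngp UMIs and a UMI of Camp, Ltf or Lcn2, with the same limits on other types, are called granule-rich neutrophils here and numbered 1 and 109.

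Mature neutrophils were 5.40% of kept cells in Runx3_fl (exact binomial interval 5.00 to 5.82) and 3.59% in Runx3 (3.19 to 4.01). The difference was 1.81 percentage points lower in Runx3 (Newcombe interval of Runx3 minus Runx3_fl -2.38 to -1.24). The share was also lower in Runx3 under each of the 11 other cell selections tried, by 1.13 to 2.54 points. Leaving out the 5% of cells with most UMIs removed the same part of each library's mature neutrophils, so its direction was fixed in advance. The selections by cluster rest on cluster sizes, from which no difference is read. None of the 11 selections lifted the limits on Ngp, C1q, Adgre1, Cd3e or Cd79a. Before those limits, 967 of 11885 kept cells in Runx3_fl and 906 of 8167 in Runx3 had at least 3 of the 7 genes. That share was larger in Runx3, so the direction depends on the limits. Both shares of mature neutrophils depend on what else was in the libraries, including the T and B cell shares above, and their part in the difference was not tested.

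Clustering of the mature neutrophils alone gave 6 clusters, and these describe how the cells differed among themselves. Cluster 1 had the most S100a8 and S100a9 of the 2 main clusters and was also led by Stfa2l1, a stefin, Slpi, an inhibitor of neutrophil elastase, and Asprv1, a protease. Cluster 2 was led by the cytokine genes Il1a, Tnf, Il23a and Csf1 and the chemokines Ccl3 and Ccl4. These clusters held 301 and 250 cells in Runx3_fl and 121 and 50 in Runx3. A cell of cluster 1 had a median of 20.9 S100a8 and S100a9 UMIs per 1000 in Runx3_fl and 12.03 in Runx3, and a cell of cluster 2 had 1.63 and 1.74. These numbers only describe the libraries and no difference in cluster size is read from them, since genes that formed the clusters differed between them.

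Cluster 3 went against the neutrophil label. It was led by the MHC class II genes H2-Aa, H2-Ab1 and H2-Eb1 and by Ms4a6c and Ms4a4c, genes of monocytes, and 17 of its 39 cells in Runx3_fl and 50 of its 86 in Runx3 had just 3 of the 7 genes. Its median was 13987 UMIs per cell in Runx3_fl and 6948 in Runx3, so that it held 6.07% of the cells but 22.4% of the UMIs in Runx3_fl, and 29.4% and 49.6% in Runx3. Cluster 4, with 39 and 13 cells, was led by Astl and Taf13. Cluster 5, with 13 and 5 cells, was led by the lymphocyte genes Gzma, Xcl1, Gzmb and Ifng. Cluster 6 held 18 cells, all in Runx3, and 0 of 642 in Runx3_fl allows a share of up to 0.467%. Its cells had 57287 CPM of S100a8, 49453 CPM of S100a9 and 18919 CPM of Retnlg, and were also led by Mmp8, Wfdc21 and Lcn2, genes of late granules. Because sums over all mature neutrophils weigh cluster 3 so differently, the comparisons of gene lists are given over all cells and over clusters 1 and 2, a choice made after the data were seen.

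**Figure D1:**
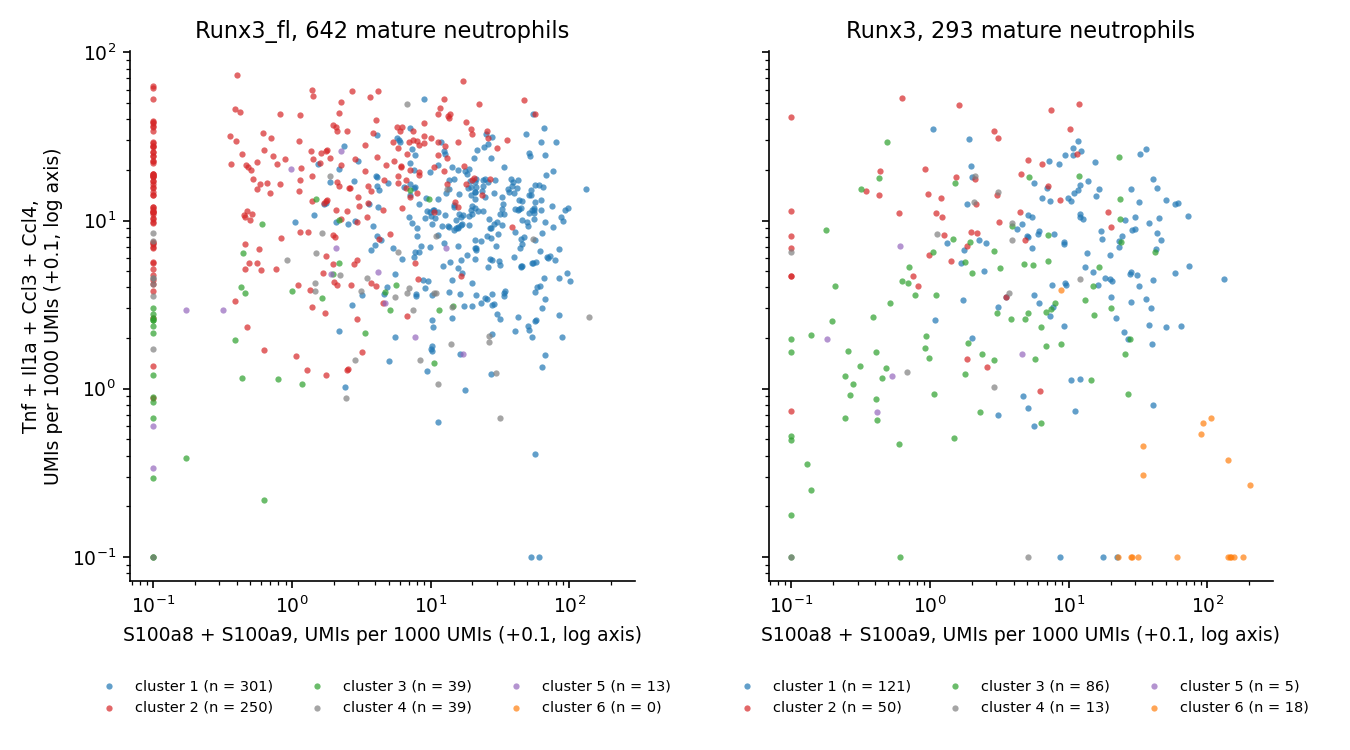
Each point is 1 mature neutrophil of the library named above its panel, with S100a8 plus S100a9 UMIs per 1000 UMIs on the horizontal axis and Tnf, Il1a, Ccl3 and Ccl4 together on the vertical axis (log axes, 0.1 added). Cluster 1 lies to the right of cluster 2 in both panels (medians of 20.9 and 1.63 in Runx3_fl), and the 18 cells of cluster 6 lie at the lower right in Runx3.

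The genes most particular to mature neutrophils were ranked by the smaller of their 2 log2 ratios over all other kept cells, which describes the cells the rule chose. The rule genes Il1f9, an interleukin 1 family cytokine (6.48 in Runx3_fl and 4.61 in Runx3), and G0s2, an inhibitor of fat breakdown (6.47 and 4.49), came first. Steap4, a metalloreductase, followed at 6.01 and 4.45, and the rule gene Hcar2, the receptor for niacin and butyrate, had 5.04 and 4.32. Hdc, which makes histamine, was at 1834 and 1243 CPM in the mature neutrophils, with log2 ratios of 5.79 and 3.78. Clec4d, a C-type lectin receptor for microbial lipids, was at 3969 and 2677 CPM, with ratios of 5.07 and 3.77. Every ratio printed in this paragraph was smaller in Runx3. The free RNA and the granule-rich neutrophils among its other cells were not removed, and their part in this was not tested.

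Runx3 itself was scarce in mature neutrophils. In clusters 1 and 2 there were 34 Runx3 UMIs in Runx3_fl (19.4 CPM, Poisson interval 13.5 to 27.1) and 19 in Runx3 (34.5 CPM, 20.8 to 53.9). T cells had 240 CPM in both libraries. C1q-negative monocytes, cells with Ly6c2 and other monocyte genes but no C1q UMI, had 160 and 206 CPM. Over all mature neutrophils Runx3 was at 74.9 and 98.5 CPM, where cluster 3 had 169 and 150 CPM. The neutrophil level was thus below that of T cells in each library. It was higher in the Runx3 library in clusters 1 and 2, with overlapping intervals, and over all mature neutrophils, but lower in cluster 3. Reads from outside the floxed part of the gene would count as well, so the 3' tags do not check the deletion. The Cre driver Lyz2, lysozyme M, was at 162 and 118 CPM in clusters 1 and 2. T cells had 208 and 377 CPM of it, and C1q-negative monocytes 4172 and 1537 CPM. The part of free RNA in the Lyz2 of clusters 1 and 2 was not tested. Runx1, a paralogue of Runx3, was at 983 and 1280 CPM over all mature neutrophils, a log2 ratio of 0.38 (exact conditional interval 0.29 to 0.47).

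Summed UMIs per library were compared for the 3118 genes that reached 50 CPM and 10% of the cells in at least 1 library. Ratios are Runx3 over Runx3_fl on the log2 scale of CPM plus 1, and a difference of 2-fold or more was counted. Such a difference was seen for 213 genes higher in Runx3 (6.83%) and 90 higher in Runx3_fl (2.89%). The median of all 3118 ratios was 0.19, and with this median set to 0 the split became 139 and 143. Leaving out the 5% of the cells with most UMIs in each library gave 382 and 103, and thinning each cell to 1000 UMIs gave 103 and 47 among 1526 genes. In clusters 1 and 2 the median was 0.08 over 2539 genes, with 149 genes higher in Runx3 (5.87%) and 79 higher in Runx3_fl (3.11%). Of the 213 genes, 119 were called again in clusters 1 and 2 and 203 kept their sign, and of the 90 genes 39 were called again and 90 kept their sign. C1q-negative monocytes gave 221 and 112 of 3668 genes (6.03% and 3.05%), and T cells 512 and 383 of 4142 (12.4% and 9.25%).

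Several cytokine genes of mature neutrophils were lower in Runx3. Il1a, the interleukin 1 alpha alarmin, was at 1067 CPM in Runx3_fl and 337 CPM in Runx3, a log2 ratio of -1.66 (-1.81 to -1.52). It was found in 68.5% and 35.5% of the cells. Within cluster 1, of which it was no leading gene, it was at 1017 and 316 CPM, and T cells had 27.2 and 32.5 CPM. In cluster 2, which it helped to define, it was at 1917 and 1373 CPM. Monocytes showed the same direction, with 254 and 47.6 CPM. The part of the cluster make-up in the ratios over all cells was not tested beyond these within-cluster values.

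Il1a was not alone at its locus on chromosome 2 (GRCm38), where neighbours were looked up after the values were seen. Il1a lies at 129299610 to 129309972 on the minus strand. Ckap2l, which encodes a protein of the mitotic spindle, ends 2398 bases away (129268210 to 129297212, minus strand), and the noncoding Gm14023 (129297370 to 129307826, plus strand) overlaps Il1a. Ckap2l was at 416 CPM in Runx3_fl and 101 CPM in Runx3 (log2 ratio -2.02, -2.30 to -1.78), and at 355 and 114 CPM within cluster 1. Gm14023 was at 61.8 and 11.02 CPM (-2.38, -3.36 to -1.72). Whether the counting used strand is not given in the sources used here, so UMIs of Gm14023 and Il1a could not be told apart with certainty. Il1b, which encodes interleukin 1 beta and lies at 129364570 to 129371139, was at 7492 and 4251 CPM, a smaller ratio of -0.82 (-0.86 to -0.77).

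**Figure D2:**
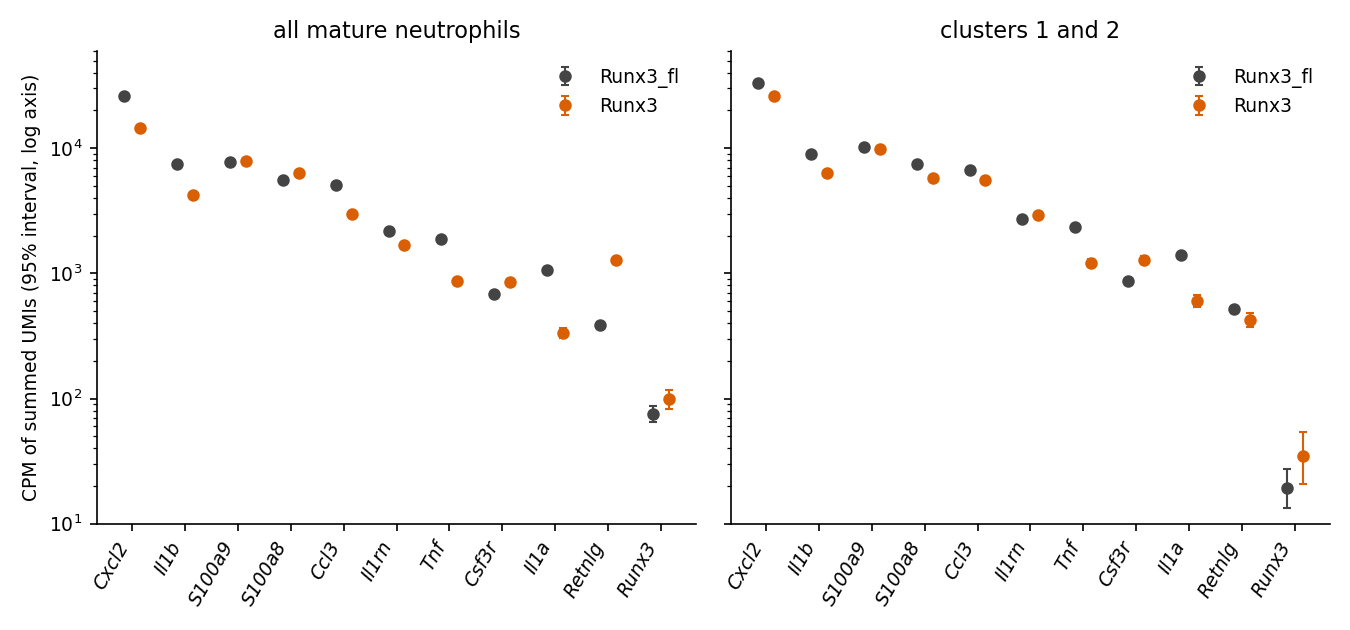
Levels of 11 genes in CPM of summed UMIs (log axis, with 95% Poisson intervals) in all mature neutrophils and in clusters 1 and 2 of each library. Il1a was lower in Runx3 in both panels (1067 and 337 CPM over all cells), Retnlg was higher in Runx3 over all cells only, and S100a9 stood close together in both.

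Over the list of interleukin 1 family and inflammasome genes, 10 of 13 passed the filter on low values, 1 was higher in Runx3_fl by 2-fold (Il1a), none higher in Runx3, and the median was -0.49 (-0.32 over 9 genes in clusters 1 and 2, with Il1a again lower). Nlrp3, the sensor of the inflammasome, was at 4788 and 2459 CPM (-0.96), and at 6040 and 4403 CPM in clusters 1 and 2. Both inhibitors of the pathway had ratios closer to 0 than Il1a and Nlrp3. The rule gene Il1f9, a cytokine of the same list, had -0.51 over all cells but 0.02 in clusters 1 and 2, so the inhibitors were not alone there. Il1rn, the receptor antagonist, was at 2165 and 1695 CPM (-0.35), with a ratio of 0.10 in clusters 1 and 2, and Il1r2, the decoy receptor, was at 1643 and 1721 CPM (0.07), with 0.38 there.

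Among 24 cytokine and chemokine genes 19 passed, 3 were lower in Runx3 (Tnf, Il23a and Cxcl9), 2 were higher (Ccl2 and Ccl9), and the median was -0.48. Tnf was at 1869 CPM in Runx3_fl and 864 CPM in Runx3 (-1.11, -1.21 to -1.02), with 1527 and 579 CPM in cluster 1 and 3426 and 2949 CPM in cluster 2. Il23a, a subunit of interleukin 23, was at 523 and 236 CPM (-1.15) and had -0.64 in clusters 1 and 2. Cxcl2, the CXCR2 ligand and the gene with most UMIs of the list, was at 25878 and 14369 CPM (-0.85), and its ratio was -0.35 in clusters 1 and 2 (33347 and 26220 CPM). Ccl9 was higher in Runx3 only with cluster 3 in the sum, and had -0.65 in clusters 1 and 2. Vegfa, which encodes an angiogenic factor, was at 137 and 219 CPM (0.68), and its ratio rose to 1.38 (1.12 to 1.65) in clusters 1 and 2. In clusters 1 and 2, 17 cytokine genes passed, with 2 higher (Vegfa and Cxcl3), 2 lower (Cxcl9 and Ccl5) and a median of -0.32. C1q-negative monocytes had 11 of 17 lower and a median of -1.38. Il6 had no UMI in clusters 1 and 2 of either library.

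Genes that act with these cytokines were mostly lower in Runx3 by less than 2-fold. All 17 genes of NF-kB subunits and feedback inhibitors passed, none reached 2-fold, 2 had a ratio above 0, and the median was -0.51 (-0.36 in clusters 1 and 2). Nfkbia, which holds NF-kB in the cytoplasm, was at 4618 and 3028 CPM (-0.61), and Sod2, the mitochondrial superoxide dismutase, at 878 and 571 CPM (-0.62). Ptgs2, the cyclooxygenase of prostaglandin synthesis, was at 3139 and 1505 CPM (-1.06), and -0.70 in clusters 1 and 2. Of 5 prostaglandin and leukotriene genes that passed of 10, Ptgs2 and Ptgs2os2 were lower, and Alox5, the first enzyme of leukotriene synthesis, was higher (19.1 and 55.9 CPM, interval of the log2 ratio 1.01 to 2.10), with a median of -0.50. Alox5 alone reached 2-fold in clusters 1 and 2 (median -0.41). Among 16 genes of growth factor receptors and survival all passed, 3 were lower, and the median was -0.40 (2 of 15 lower and -0.17 in clusters 1 and 2). The 3 were the near-identical copies Bcl2a1a, Bcl2a1b and Bcl2a1d of an anti-apoptotic BCL2 relative, between which UMIs could have been divided. Bcl2a1b was at 2352 and 747 CPM (-1.65, -1.75 to -1.56) and at -1.21 in clusters 1 and 2.

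The response lists of the 2 kinds of interferon had medians of opposite sign. Of 26 type I interferon response genes in the files, 25 passed in clusters 1 and 2, 8 were higher in Runx3 by 2-fold, none lower, 21 had a ratio above 0, and the median was 0.82 against 0.08 for all genes. Of 15 interferon gamma response genes 12 passed there, 3 were lower by 2-fold, none higher, 2 had a ratio above 0, and the median was -0.53. Over all mature neutrophils the counts were 6 of 25 higher with a median of 0.47, and 4 of 12 lower with a median of -0.80.

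Irf7, a transcription factor that amplifies the type I response, was at 139 CPM in clusters 1 and 2 of Runx3_fl and 527 CPM in Runx3 (1.91, 1.67 to 2.17), and was found in 29.8% and 62.0% of the cells. Ifit3, an antiviral protein that binds in complexes on viral RNA, was at 116 and 369 CPM (1.66, 1.38 to 1.96). It was higher in Runx3 in each of the 2 clusters, at 93.2 and 380 CPM in cluster 1 and 146 and 338 CPM in cluster 2. Slfn4, a schlafen of myeloid cells, was at 478 and 1196 CPM (1.32), and Rsad2, the antiviral protein viperin, at 919 and 2058 CPM (1.16). The other 4 of the 8 were Ifit1, Ifit3b, Usp18 and Ifi211. Isg15, a ubiquitin-like protein of the same response, differed little in these clusters, with a ratio of 0.05.

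The T cells of the same libraries showed the same direction at lower levels, with Irf7 at 20.3 and 204 CPM, Ifit3 at 2.22 and 31.5 CPM, Slfn4 at 3.91 and 64.0 CPM and Rsad2 at 51.1 and 87.0 CPM. For these 4 genes the difference in CPM was larger in the neutrophils of clusters 1 and 2 than in T cells. Median UMIs per cell were 2961 and 3029 in these neutrophils and 13810 and 10252.5 in T cells. A larger difference in CPM is therefore not a larger difference in UMIs per cell. Over the list, 12 of 18 genes that passed in T cells were higher in Runx3 with a median of 1.54, and monocytes had 9 of 23 higher, 2 lower and a median of 0.56. The part of free RNA in the T cell values was not tested. Rsad2 differed in sign, since monocytes had 353 CPM in Runx3_fl and 267 CPM in Runx3.

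Gbp5, a guanylate-binding protein induced by interferon gamma, was at 473 CPM in clusters 1 and 2 of Runx3_fl and 207 CPM in Runx3 (-1.19, -1.49 to -0.91). Gbp2 was at 2171 and 1218 CPM there (-0.83) and at 1758 and 809 CPM over all mature neutrophils (-1.12). Cxcl9, a chemokine for T cells, was at 363 and 109 CPM in these clusters (-1.73, -2.14 to -1.35), where T cells of the same libraries had 139 and 50.3 CPM. Cd274, the checkpoint ligand PD-L1, was at 3097 and 2276 CPM (-0.44). Monocytes had 7 of 13 genes of the list lower and a median of -1.02, but T cells had 3 of 12 higher, 1 lower and a median of 0.37.

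**Figure D3:**
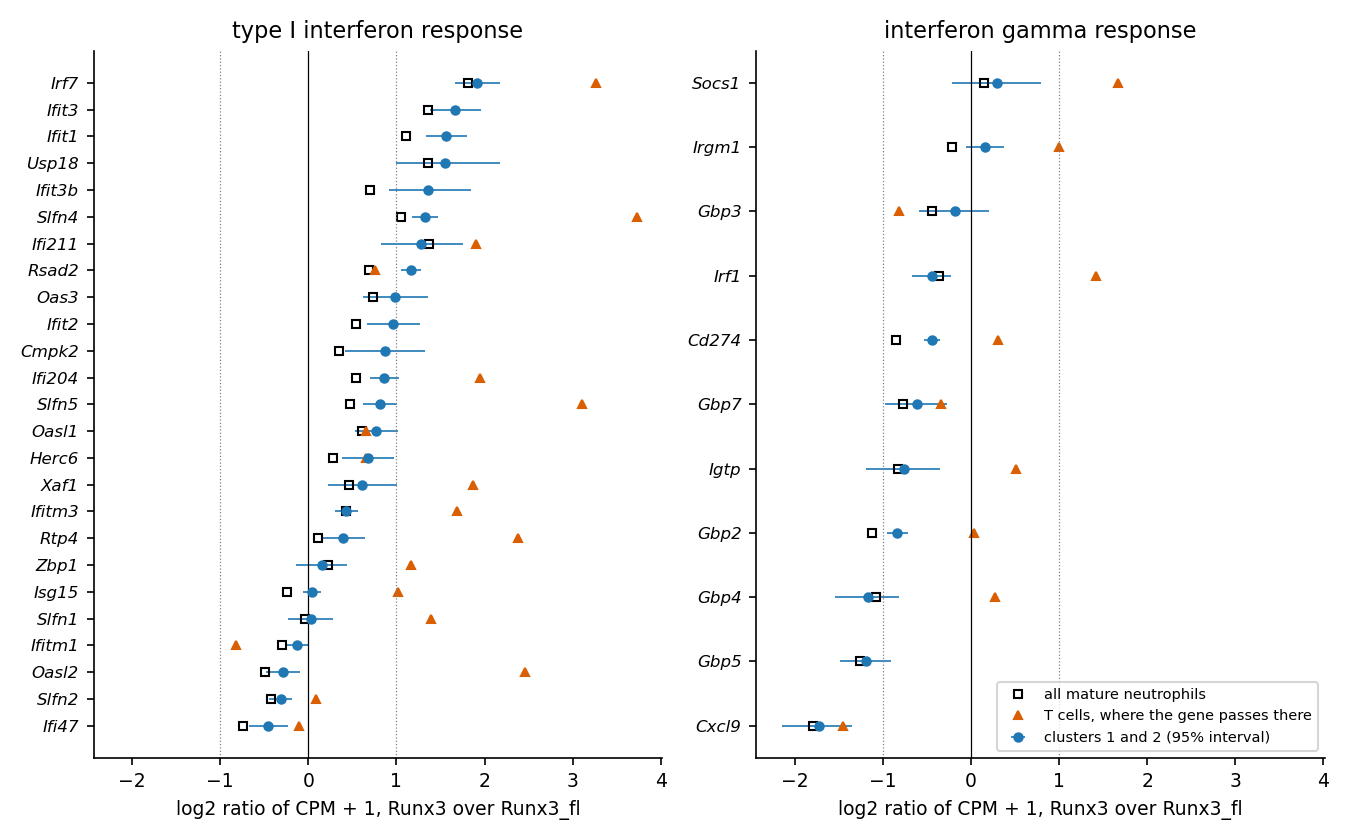
Log2 ratios of CPM plus 1, Runx3 over Runx3_fl, for genes of the type I and gamma interferon lists that passed the filter, in all mature neutrophils (squares), clusters 1 and 2 (circles with 95% intervals) and T cells (triangles, where the gene passed). Of the 25 type I genes 21 lie above 0 in clusters 1 and 2, against 2 of the interferon gamma genes drawn (1 gene that passed is not drawn), and dotted lines mark 2-fold.

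Promoters of 3 of these genes are printed because they show the letters that define the interferon-stimulated response element. The windows hold 250 bases before and 50 after the start of the gene (RefSeq, GRCm38.p6, printed 5′ to 3′ on the strand of the gene), and capitals mark GAAA, any 2 bases and GAAA again, or the reverse complement (TTTC, any 2 bases and TTTC), searched on both strands. Ifit3 (chr19:34583279-34583578, plus strand) has 2 matches, Rsad2 (chr12:26456403-26456702, minus strand) 1 and Gbp5 (chr3:142496684-142496983, plus strand) 1.
Ifit3: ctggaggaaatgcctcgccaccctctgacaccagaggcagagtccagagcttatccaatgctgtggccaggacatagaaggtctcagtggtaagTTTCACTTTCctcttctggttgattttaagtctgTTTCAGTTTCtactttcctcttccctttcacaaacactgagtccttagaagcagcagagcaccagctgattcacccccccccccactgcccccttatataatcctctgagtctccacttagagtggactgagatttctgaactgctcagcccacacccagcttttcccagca
Rsad2: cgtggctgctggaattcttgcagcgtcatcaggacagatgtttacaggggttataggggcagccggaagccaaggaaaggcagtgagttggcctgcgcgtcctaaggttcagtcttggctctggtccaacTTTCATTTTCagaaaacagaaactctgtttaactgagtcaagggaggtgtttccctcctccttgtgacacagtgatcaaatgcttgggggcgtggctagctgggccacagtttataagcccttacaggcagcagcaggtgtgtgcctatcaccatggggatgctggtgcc
Gbp5: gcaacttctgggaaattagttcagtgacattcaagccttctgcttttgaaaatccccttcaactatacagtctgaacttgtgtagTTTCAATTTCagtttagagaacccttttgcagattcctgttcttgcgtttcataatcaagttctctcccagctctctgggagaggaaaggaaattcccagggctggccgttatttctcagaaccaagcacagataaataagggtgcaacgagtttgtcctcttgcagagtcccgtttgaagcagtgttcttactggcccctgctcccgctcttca
The motif was found in 1131 of all 32851 promoters (3.44%). The lists were counted by gene, with a match in any promoter of the gene. The motif was found for 10 of 22 genes of the type I list (45.5%) and 7 of 10 of the interferon gamma list (70.0%). Shares of promoters and shares of genes are not the same unit. The letters of the gamma-activated site, TTCNNNGAA, which is its own reverse complement, were in 2726 of all promoters (8.30%). They were found for 2 of the 22 genes and 4 of the 10, Gbp5 among them. A match describes the letters only and does not show that a factor was bound.

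Heat shock genes had a median ratio above 0 in the mature neutrophils, in monocytes and in T cells. Of 13 genes 11 passed in the mature neutrophils, 5 were higher by 2-fold (Hspa1a, Hspa1b, Dnajb1, Hsph1 and Hspd1), 11 of the 11 had a ratio above 0, and the median was 1.00. Hspa1a, the inducible HSP70 chaperone, was at 72.1 CPM in Runx3_fl and 1103 CPM in Runx3 (3.92, 3.71 to 4.17), and its near-identical copy Hspa1b at 55.4 and 900 CPM (log2 interval 3.77 to 4.28), so the division of UMIs between the copies is uncertain. Most of this lay in cluster 3, which had 240 and 1884 CPM of Hspa1a. Clusters 1 and 2 had 20.6 and 202 CPM, below the 47.6 and 892 CPM of T cells. Hspa1a is not a neutrophil gene that T cells should lack, so their level is no measure of free RNA. The part of free RNA in the Hspa1a of clusters 1 and 2 was not tested. In clusters 1 and 2, 8 heat shock genes passed, 2 were higher (the same HSP70 copies) and the median was 0.55. Monocytes had 5 of 12 higher with a median of 0.60 and T cells 5 of 12 with 0.65.

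Immediate early genes, which are switched on within minutes of a stimulus or of tissue handling, had 25 of 26 genes passed, 2 higher in Runx3, none lower and a median of 0.21, close to the 0.19 of all genes. Fos was at 442 and 958 CPM (1.11) and Jun at 207 and 423 CPM (1.03). Both fell short of 2-fold in clusters 1 and 2, at 0.91 and 0.75, where the list median was 0.36. T cells had 17 of 25 higher with a median of 1.32 and monocytes 12 of 25 with 0.90. Of the genes the study named, Nr4a1, a nuclear receptor, was at 556 and 690 CPM (0.31), and Zfp36, an mRNA decay factor, at 2088 and 2168 CPM (0.05). Among the 16 study genes 15 passed, with 1 higher (Hspa1a), 1 lower (Tnf) and a median of 0.31. Their median was -0.05 in clusters 1 and 2, where 13 passed, with Hspa1a higher and Ccl5 lower.

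**Figure D4:**
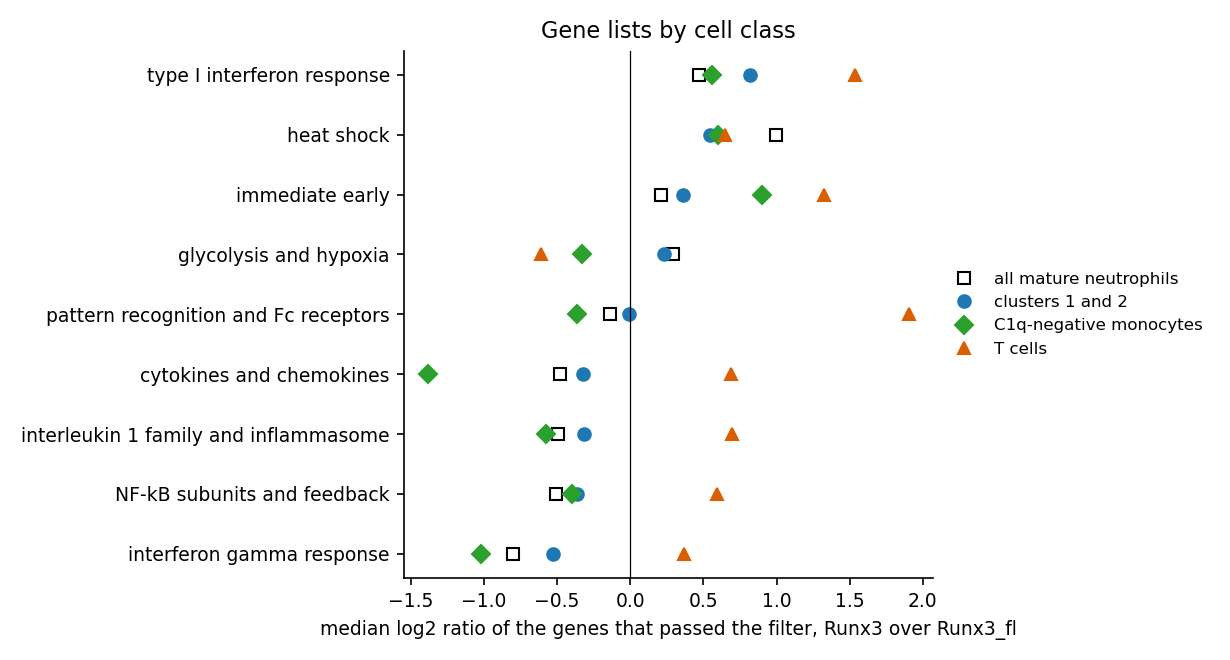
Median log2 ratio of CPM plus 1, Runx3 over Runx3_fl, of the genes of each list that passed the filter, in all mature neutrophils, clusters 1 and 2, C1q-negative monocytes and T cells. In clusters 1 and 2 the type I interferon list had the highest median of those shown (0.82) and the interferon gamma list the lowest (-0.53), and T cells lay above 0 for each list except glycolysis and hypoxia.

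Granule genes differed between the lists. All 6 calprotectin and S100 genes passed over all cells and none reached 2-fold (median 0.24). In clusters 1 and 2, 4 passed, none reached 2-fold and the median was -0.06. The list summed to 15581 and 16832 CPM over all cells, which in Runx3 include the S100a8 and S100a9 of cluster 6. Its sums were lower in Runx3 within cluster 1 (29809 and 22752 CPM) and within cluster 2 (6607 and 4668 CPM). Of 15 gelatinase and secretory granule genes in the files 11 passed, 3 were higher (Mmp8, Retnlg and Adam8), 1 lower (Stfa2l1), and the median was 0.31. This median turned to -0.26 in clusters 1 and 2, where 10 passed, 1 was higher (Adam8) and 1 lower (Wfdc17). Retnlg, a secreted resistin-like protein and 1 of the rule genes, was at 386 and 1274 CPM over all cells, with 1391 of its 1734 UMIs of Runx3 in cluster 6, and was at 517 and 427 CPM in clusters 1 and 2 (-0.27). Mmp8, neutrophil collagenase, was likewise at 22.7 and 103 CPM over all cells but at 27.4 and 38.2 CPM in clusters 1 and 2. Adam8, a sheddase of adhesion receptors, remained higher there (85.7 and 254 CPM, 1.56, 1.23 to 1.91). Of 9 specific granule genes 2 passed over all cells, Lcn2 and Chil3, both higher (median 1.32). In clusters 1 and 2, 4 passed with 3 higher (Camp, Ngp and Lcn2) and a median of 2.42. This count and this median include Ngp, which the rule limited to 2 UMIs. Camp and Ngp were at 65.5 and 52.7 CPM in clusters 1 and 2 of Runx3, below the 253 and 300 CPM of its T cells. In Runx3 the list summed to 814 CPM in T cells and 606 CPM in mature neutrophils. The rule capped Ngp of this list in mature neutrophils but not in T cells (46.3 and 300 CPM in Runx3). The sums are therefore not alike, and the part of free RNA was not tested. In Runx3_fl the list summed to 11.3 CPM in T cells and 244 CPM in mature neutrophils. Of 6 azurophil genes Srgn alone passed, at -0.61.

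The lists of oxidase, receptor and metabolic genes follow, to be read against the 6.83% and 2.89% of all genes at 2-fold. All 6 NADPH oxidase genes passed with none at 2-fold and a median of -0.05, although Cybb, the catalytic subunit, reached -1.19 in clusters 1 and 2 (462 and 202 CPM). Of 26 pattern recognition and Fc receptor genes in the files 25 passed, with Fcgr1 higher, Irak3, Clec4n and Clec5a lower and a median of -0.14, and none of the 23 that passed in clusters 1 and 2 reached 2-fold. Among 14 chemoattractant receptors 10 passed, with Ccr2 higher and the formyl peptide receptor Fpr1 lower (293 and 135 CPM, -1.11), and a median of -0.50. Neither call was made in clusters 1 and 2, where 9 passed, none reached 2-fold and the median was -0.11. The adhesion list had 10 of 13 genes passed, none at 2-fold and a median of 0.17, both over all cells and in clusters 1 and 2. Its Cd44, the hyaluronan receptor, was at 3172 and 1646 CPM (-0.95). Cxcr4, a receptor that returns ageing neutrophils to the marrow, was at 264 and 390 CPM (0.56). The tissue and aged neutrophil list had 10 of 14 passed, Ffar2, a receptor for short-chain fatty acids, lower, and a median of -0.20. Its median turned to 0.31 in clusters 1 and 2, where 10 genes passed and none reached 2-fold. Glycolysis and hypoxia genes had 20 of 23 passed, none at 2-fold and a median of 0.29, where T cells had -0.61 and monocytes -0.33, and clusters 1 and 2 had 18 passed, 1 higher (Vegfa) and 0.23. Of 18 transcription factors 15 passed, with a median of 0.39, and none of the 10 that passed in clusters 1 and 2 reached 2-fold (median 0.33).

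The 12 genes with the highest ratio over all mature neutrophils were Ebf1, Hspa1b, Nkain2, Hspa1a, Spon1, Arhgef10l, P2rx7, Hes1, Hsph1, Apoe, Spink4 and Sdc3. Several were at or below the T cell level of their library. Ebf1, a B cell factor, rested on 3 UMIs in Runx3_fl and was at 65.4 CPM in Runx3 against 395 CPM in T cells. Apoe, the macrophage apolipoprotein, was at 50.6 and 362 CPM against 52.2 and 689 CPM. Spon1, an extracellular matrix protein, was at 17.1 and 169 CPM (3.23), nearly all in cluster 3, and was at 4.57 and 3.64 CPM in clusters 1 and 2. Nkain2, a membrane protein that binds the sodium pump, was present in clusters 1 and 2 as well, at 5.71 and 122 CPM (4.19, 3.45 to 5.54). T cells (1.61 and 39.4 CPM) and monocytes (ratio 4.68) shared the direction. In Runx3 its UMIs were 67 in the 171 cells of clusters 1 and 2 and 274 in the 530 T cells. The part of free RNA in these values was not tested. Spink4, a peptide of goblet cells, was at 33.1 and 400 CPM in cluster 1, where 10.7% of the cells of Runx3 had a UMI of it, against 10.0% of T cells.

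The 12 genes with the lowest ratio were Gm14023, Gzma, Ckap2l, Cxcl9, Tgtp1, Upp1, Gm47507, Zfp719, Il1a, Bcl2a1b, Gm41409 and Arhgef3. Gzma, a granzyme, was at 166 and 39.7 CPM over all mature neutrophils and led cluster 5, whose 13 cells held 333 of its 417 UMIs in Runx3_fl. It had 70 and 6 UMIs in clusters 1 and 2. Upp1, uridine phosphorylase, was at 338 and 104 CPM (-1.70) and at -1.21 in clusters 1 and 2, and monocytes had -3.06. Arhgef3, an exchange factor for RhoA, was at 405 and 132 CPM (-1.61) and -1.64 in clusters 1 and 2, where monocytes had -0.29 and T cells -0.21. Tgtp1, a GTPase induced by interferon, was at 102 and 28.7 CPM (-1.79). It had -3.04 in cluster 1 and -0.65 (-1.61 to 0.19) in cluster 2. Monocytes had -0.43 and T cells 1.04 (4.89 and 11.1 CPM), but Tgtp1 passed the filter in neither class. The differences of Arhgef3 and Tgtp1 between cell classes were not tested. Within clusters 1 and 2, Thbs1, the matrix protein thrombospondin 1, was among the 12 genes with the highest ratio, at 308 and 1236 CPM (2.00, 1.84 to 2.17). It was higher in both clusters, with 375 and 1360 CPM in cluster 1 and 219 and 900 CPM in cluster 2, while monocytes had 293 and 331 CPM and T cells 18.2 and 100.3 CPM.

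Markers of other cell types were measured in the mature neutrophils as summed CPM of each list. The 10 monocyte and macrophage genes summed to 722 CPM in Runx3_fl and 2456 CPM in Runx3 over all cells and to 440 and 887 CPM in clusters 1 and 2, with none of the 10 at 0 in either library. The 10 dendritic cell genes were at 4646 and 5876 CPM over all cells and at 680 and 1293 CPM in clusters 1 and 2. The 8 NK cell genes were at 320 and 119 CPM, the 8 T cell genes at 54.2 and 38.2 CPM, the B cell genes at 63.4 and 117 CPM and the plasma cell genes at 118 and 253 CPM. Epithelial genes were at 40.3 and 46.3 CPM, stromal genes at 89.3 and 160 CPM, eosinophil genes at 25.5 and 36.7 CPM and erythroid genes at 1.59 and 2.94 CPM. Basophil and mast cell genes were all at 0 in Runx3_fl and at 5.14 CPM in Runx3. The part of these other cell types in the ratios over all mature neutrophils was not tested beyond the values in clusters 1 and 2.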

How the data were processed

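Single-cell RNA was measured with 10x Genomics 3' chemistry in 2 libraries, 1 per group. The deposited matrices hold UMI counts per gene and cell that the authors made with Cell Ranger 7.1.0 per the file headers, not normalized. The submitters' processing notes name mm10 and Seurat 4, and the annotation used for counting is not given in the sources used here. Of 32285 gene IDs, 32158 were in GENCODE M21, which gave positions.

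Cells with 200 to 6000 genes and at most 15% mitochondrial UMIs were kept, as in the study, which left 11885 of 12968 and 8167 of 8953. The upper gene limit was the treatment of doublets, and an alternative left out the 5% of mature neutrophils with most UMIs. The libraries shared 37 barcodes, of which 2 were mature neutrophils in Runx3_fl and 0 in both libraries. T cells had a UMI of Cd3e and of Cd3d or Cd3g, B cells 2 of Cd79a and 1 of Ms4a1, and C1q-negative monocytes 1 of Ly6c2 and at least 2 of the genes Ccr2, Csf1r, F13a1 and Fn1 with fewer than 3 of the 7 neutrophil genes. Doublets were not removed from these classes. The mature neutrophils and the gene lists were chosen with earlier results of these data known.

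UMIs were summed per library, scaled to 1000000 (CPM) and compared as log2 of CPM plus 1 for genes at 50 CPM and in 10% of the cells of at least 1 library. Named genes were the 12 highest and 12 lowest ratios, the 12 most particular genes, and from each list those at 2-fold and up to 4 of the highest CPM. Other genes named (the Il1a neighbours and the clusters 1 and 2 genes) were chosen after their values were seen. Of 378 listed genes, 374 were in the files, and BC100530, Clec7a, Mx1 and Mx2 were not analysed here. Values of some listed genes are not reported here. Shares of cells were also taken after thinning to 1000 UMIs, which leaves out 9 and 23 shallower mature neutrophils. Clustering of the 935 cells used 1000 variable genes, counts per 10000 on a log scale, 20 components, 15 neighbours and the Leiden method at resolution 0.5.

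Intervals (95%) were Poisson for CPM, Clopper-Pearson for shares, Newcombe for their difference and exact conditional for ratios, and cover counting error only. Alternatives changed the rule, depth, mitochondrial limit, gene filter, scaling, pseudocount, weighting and clusters included. A count of 0 was given a limit of 3 counts. On simulated counts for the comparison of mature neutrophils (3118 genes, 200 changed), 100% of the genes changed by a log2 ratio of 1.5 and 100% of those changed by 3 were called, 0% of unchanged genes were called, and 95.3% of intervals held the true ratio. The counts were Poisson draws, the counting error that the intervals assume. They held no variation between animals or libraries, no free RNA and no clusters. These figures check the calculation and do not give the rate of false calls between libraries. Clusters were made with leidenalg 0.10.2, igraph 0.11.9 and scikit-learn 1.9.0, intervals with scipy 1.17.1, and tables and plots with numpy 2.4.6, pandas 2.3.3 and matplotlib 3.10.9 in Python 3.11.15.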

Additional observations from a re-analysis of the deposited data

Results flagged for a closer look

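Of 2774 genes measured above the filter in both cell classes, 2 stood out. For these, mature neutrophils and C1q-negative monocytes differed by 2-fold in opposite directions between the libraries. Fap, a membrane protease best known from fibroblasts, had a log2 ratio of 1.04 in mature neutrophils (59.4 CPM in Runx3_fl and 123 CPM in Runx3) and -1.36 in monocytes (144 and 55.4 CPM), and clusters 1 and 2 had 64.0 and 182 CPM. Sdc4, a cell surface proteoglycan, had 1.27 in mature neutrophils (35.1 and 86.0 CPM) and -1.26 in monocytes (325 and 135 CPM), but rested on only 6 and 14 UMIs in clusters 1 and 2. With 1 library per group the difference between the cell classes was not tested.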

How the results depend on the processing

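The share of mature neutrophils was lower in Runx3 under all 11 other cell selections, none of which lifted the limits on Ngp, C1q, Adgre1, Cd3e or Cd79a. Leaving out the 5% of cells with most UMIs could not change this direction, and the selections by cluster rest on cluster sizes. The difference (1.81 points) was -1.13 with at least 2 of the 7 genes, -1.16 after thinning, -2.47 with no Ngp UMI, and, for selections added after seeing the data, -2.49 without clusters 3 and 5 and -2.54 in clusters 1 and 2. Without cells holding a Xist UMI, also added later, it was -1.45, and the gene counts were 288 and 105. The counts of genes at 2-fold (213 higher in Runx3, 90 higher in Runx3_fl) were 103 and 47 after thinning, where only 1526 genes passed, 139 and 143 with the median ratio set to 0, and 1177 and 225 of 7602 genes with a filter of 10 CPM alone. Leaving out the 5% of cells with most UMIs gave 382 higher in Runx3. Of 43 named or listed genes at 2-fold followed through 16 alternatives, 22 stayed at 2-fold under each, and 680 of 688 values kept their direction. The others were Spon1 (-0.79 in cluster 1, -0.26 in clusters 1 and 2), Retnlg (-0.61 and -0.27) and Ccl9 (-0.41 without cells holding 2 UMIs of other types, -0.082 thinned, -0.26 without clusters 3 and 5, -0.65 in clusters 1 and 2). The cause of these moves was not tested, apart from the smaller number of genes or cells that an alternative leaves by construction. No paired analysis was possible because each group was 1 library and the labels give no shared replicate numbers. Depth limits mainly the scarce transcripts, as with 34 and 19 UMIs of Runx3 in clusters 1 and 2.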
